A study of Mus musculus with 8 samples.

Results

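The serine, one-carbon and proline synthesis enzymes are followed here through 10 genes of the mouse embryonic heart: *Phgdh*, *Psat1*, *Psph*, *Shmt1*, *Shmt2*, *Mthfd2*, *Mthfd1l*, *Aldh1l2*, *Aldh18a1* and *Pycr1*. Members were taken by name, as the rows of the deposited expression table that carry these symbols, and each symbol was found in 1 row. They are 10 of the 24385 genes and other features in the table. Of these, 9 had a mean of at least 1 FPKM (fragments per kilobase of transcript, scaled to the mapped fragments) over all libraries and were among the 10018 features tested. *Aldh1l2*, with a mean of 0.308 FPKM, was not tested and is given by its values.

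RNA was sequenced from hearts of C57BL/6 mice at embryonic day 8.5 (E8.5) and 9.5 (E9.5), from embryos labelled wild type (WT) and from conditional knockouts of *Dgcr8* (cKO). Each of the 4 combinations had 2 libraries. The protein DGCR8 binds primary microRNA transcripts and, together with the nuclease Drosha, forms the microprocessor that cuts them. The cKO embryos were *Mesp1*-Cre heterozygotes with floxed *Dgcr8* alleles, given as Mesp1Cre/+; *Dgcr8*-/- in the labels, so that *Dgcr8* was deleted in descendants of *Mesp1*-expressing early mesoderm while cells of other origin keep the gene. Per the study's methods, the controls labelled WT also carried floxed *Dgcr8* alleles and all embryos carried the *Rosa26* mT/mG reporter, so the genotypes differed by the Cre allele as well as by the deletion. The study's methods describe the 2 replicates of a group as independent biological ones, while the labels number them without naming embryos or litters. The p-values measure the spread between these libraries, and how much of it is technical is unknown.

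Serine is made from the glycolytic intermediate 3-phosphoglycerate by PHGDH, PSAT1 and PSPH in the cytosol. Serine hydroxymethyltransferases then split serine into glycine and a one-carbon unit that is carried on folate, with SHMT1 in the cytosol and SHMT2 in the mitochondrion. In the mitochondrion MTHFD2 oxidises the unit, MTHFD1L releases it as formate for purine and thymidylate synthesis in the cytosol, and ALDH1L2 oxidises it to carbon dioxide with formation of NADPH. Proline is made from glutamate by ALDH18A1 and PYCR1, also in mitochondria. Several of these genes are known targets of the transcription factor ATF4, which is translated under amino acid shortage and mitochondrial stress.

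The number of fragments behind each value is unknown, since the table holds FPKM only. The relative depth of the libraries, read from the lowest values, spanned a 1.45-fold range. Features with loci under 300 bp took 15.7% to 54.5% of the summed FPKM of a library. The median FPKM of the tested genes lay between 7.62 and 9.90 at E8.5 and between 3.85 and 4.50 at E9.5, so each comparison is given beside the median gene. *Dgcr8* itself stood at 7.10 and 8.60 FPKM in WT at E8.5 against 1.64 and 4.67 FPKM in cKO, and at 3.49 and 3.23 FPKM in the E9.5 WT libraries against 1.15 and 1.77 FPKM in cKO. It was below the WT libraries in each cKO library of both stages, with a log2 difference of -0.84 at E9.5 (SE 0.36, limma adjusted p = 0.317) and -1.19 at E8.5 (SE 0.36, adjusted p = 0.590). The sum of 10 cardiomyocyte markers lay between 25792 and 80274 FPKM and 0 of the 10 were listed at 0 throughout, although *Ryr2*, the cardiac calcium release channel, lay between 0.618 and 2.04 FPKM.

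At E9.5 the mitochondrial enzymes were higher in both cKO libraries than in both WT libraries, while the cytosolic enzymes showed no shared direction. This held for all 6 mitochondrial members (*Shmt2*, *Mthfd2*, *Mthfd1l*, *Aldh1l2*, *Aldh18a1* and *Pycr1*) in FPKM, and for none of the 4 cytosolic members (*Phgdh*, *Psat1*, *Psph* and *Shmt1*). Among the 9 tested members, 5 stood higher without overlap beside 21.0% of all tested genes, and 1 stood lower beside 31.1%. No member passed the test, which was limma on log2(FPKM + 1), with calls made where the adjusted p was below 0.05 and the difference was 1.5-fold or more. Over all genes the same rule called 0.170% higher and 0.00998% lower, so very few genes of any kind passed it. Without adjustment, 3 of the 9 members (*Shmt2*, *Mthfd1l* and *Pycr1*) passed a p of 0.05 with 1.5-fold, all of them higher in cKO, beside 5.08% of all genes higher and 9.99% lower. Both groups have 2 libraries, and an exact permutation test of 2 against 2 cannot give a two-sided p below 0.333.

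**Figure D1:**
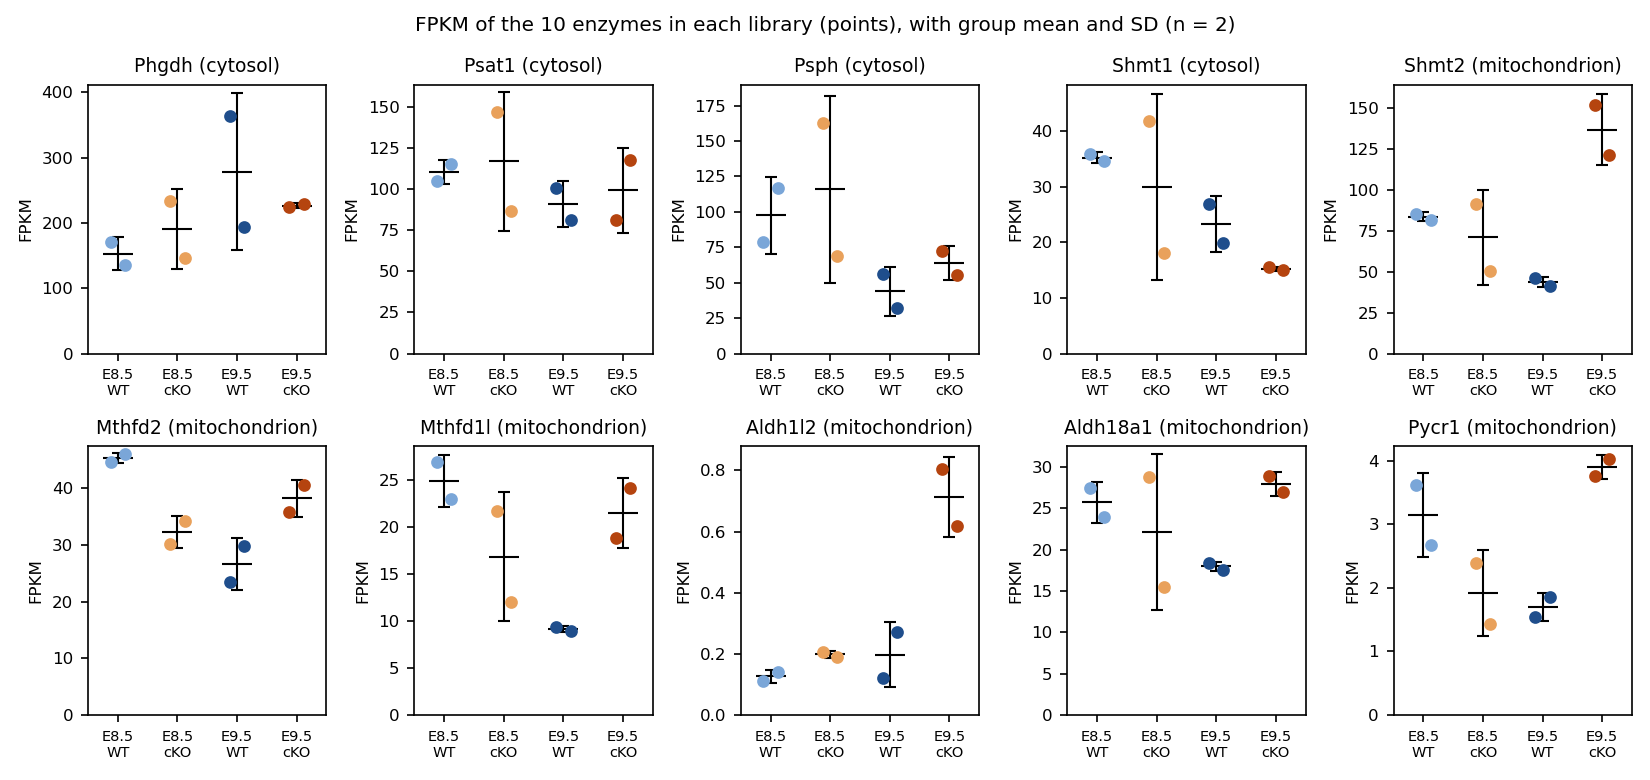
FPKM of each of the 10 enzymes in the 4 groups. Points are single libraries, and the bar and whiskers are the mean and SD of 2 libraries. The E9.5 cKO points of the 6 mitochondrial enzymes lie above both E9.5 WT points, while those of *Phgdh* and *Psat1* overlap them.

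*Shmt2* (chr10:127517123-127522444, GRCm38, minus strand), the mitochondrial serine hydroxymethyltransferase, stood at 46.1 and 41.5 FPKM in E9.5 WT hearts and at 152 and 121 FPKM in E9.5 cKO hearts. The E9.5 cKO libraries were the highest of all libraries for this gene, and the E9.5 WT libraries the lowest. The log2 difference was 1.61 (SE 0.33, 95% confidence interval 0.86 to 2.36, limma adjusted p = 0.108), the largest on this scale among the 9 members tested. At E8.5 it stood at 85.5 and 81.8 FPKM in WT against 91.4 and 50.5 FPKM in cKO, where the genotypes overlapped. The *Shmt2* locus shares 34 bp with *Ndufa4l2*, a gene for a mitochondrial protein, and the strand setting used to make the FPKM is not given in the sources used here. *Ndufa4l2* stood at 1.28 and 0.524 FPKM in the E9.5 WT libraries, against 35.7 and 26.4 FPKM in the cKO libraries. It rose by 4.09 on the log2 scale (SE 0.38, limma adjusted p = 0.0102), and its part in the *Shmt2* values was not tested.

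*Mthfd1l* (chr10:3973075-4167081, plus strand), the mitochondrial formate-releasing enzyme, had 9.40 and 8.95 FPKM in the E9.5 WT libraries, against 18.8 and 24.1 FPKM in the cKO libraries. The cKO libraries overlapped the E8.5 WT libraries, which had 26.9 and 22.9 FPKM, and the E9.5 WT libraries were below every other library. The E9.5 log2 difference was 1.14 (SE 0.32, limma adjusted p = 0.155). In E8.5 cKO hearts the gene stood at 21.7 and 12.0 FPKM, below both WT libraries of that stage.

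*Mthfd2* (chr6:83305704-83317604, minus strand), the mitochondrial dehydrogenase and cyclohydrolase that acts between SHMT2 and MTHFD1L, had 23.4 and 29.8 FPKM in the E9.5 WT libraries, against 35.8 and 40.5 FPKM in the cKO libraries. At E8.5 the order of the genotypes was the opposite, with 44.6 and 45.9 FPKM in WT against 30.2 and 34.2 FPKM in cKO. Neither stage showed overlap. The log2 difference was 0.51 at E9.5 (SE 0.25, limma adjusted p = 0.375).

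*Aldh1l2* (chr10:83487447-83534140), which oxidises the mitochondrial one-carbon unit to carbon dioxide, was the least abundant member. It was listed at 0.122 and 0.273 FPKM in the E9.5 WT libraries, against 0.804 and 0.619 FPKM in the cKO libraries, and at E8.5 it had 0.112 and 0.142 FPKM in WT against 0.207 and 0.190 FPKM in cKO. It was higher in both cKO libraries than in both WT libraries at each stage, but at levels too low for the test.

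The proline enzymes stood higher in E9.5 cKO hearts as well. *Aldh18a1* (chr19:40550257-40588463, minus strand), whose product makes pyrroline-5-carboxylate from glutamate, had 18.4 and 17.6 FPKM in the E9.5 WT libraries, against 29.0 and 27.0 FPKM in the cKO libraries. These groups did not overlap, and the replicates of each lay close together, with a log2 difference of 0.61 (SE 0.32, limma adjusted p = 0.399). *Pycr1* (chr11:120635712-120643670, minus strand), which encodes the last enzyme of proline synthesis, had 1.55 and 1.85 FPKM in the E9.5 WT libraries, against 3.76 and 4.03 FPKM in the cKO libraries. The E9.5 cKO libraries were again the highest of all libraries. Its log2 difference was 0.86 (SE 0.26, limma adjusted p = 0.172), which the added pseudocount of 1 understates at this level. At E8.5 *Aldh18a1* overlapped between genotypes (27.5 and 24.0 FPKM in WT, 28.8 and 15.5 FPKM in cKO), whereas *Pycr1* was lower in cKO (3.61 and 2.68 FPKM in WT, 2.39 and 1.43 FPKM in cKO). The *Pycr1* locus of the table reaches past the RefSeq gene, which starts at 120638998.

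The serine synthesis enzymes did not separate the genotypes at E9.5 in FPKM. *Phgdh* (chr3:98313171-98339969, minus strand), which encodes the first enzyme of the pathway and was the most abundant member in every group, had 363 and 193 FPKM in the E9.5 WT libraries, against 224 and 229 FPKM in the cKO libraries. The WT replicates lay on both sides of the cKO replicates. The log2 difference was -0.23 (SE 0.37, 95% confidence interval -1.08 to 0.63). *Psat1* (chr19:15905123-15925059, minus strand), the aminotransferase of the second step, had 101 and 81.1 FPKM in WT against 81.2 and 118 FPKM in cKO, a log2 difference of 0.11 (SE 0.34, interval -0.67 to 0.89). *Psph* (chr5:129765558-129787253, minus strand), the phosphatase of the last step, had 56.3 and 31.9 FPKM in WT against 72.6 and 55.3 FPKM in cKO, and these groups overlapped narrowly, with a log2 difference of 0.57 (SE 0.47, interval -0.51 to 1.65). Each value turned on single libraries. Without cKO replicate 1 and without cKO replicate 2, in that order, the log2 difference was -0.21 and -0.24 for *Phgdh*, 0.38 and -0.155 for *Psat1*, and 0.38 and 0.76 for *Psph*. Without WT replicate 1 and without WT replicate 2, in that order, the log2 difference was 0.23 and -0.68 for *Phgdh*, 0.27 and -0.05 for *Psat1*, and 0.97 and 0.17 for *Psph*. These intervals leave room for differences in either direction.

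At E8.5 the cKO replicates lay further apart than the WT replicates for all 9 tested members, and the serine synthesis enzymes were no exception. *Phgdh* had 171 and 135 FPKM in WT against 234 and 147 FPKM in cKO, *Psat1* had 105 and 116 FPKM in WT against 147 and 87.2 FPKM in cKO, and *Psph* had 78.5 and 117 FPKM in WT against 163 and 68.8 FPKM in cKO. The cKO replicates enclosed both WT values for *Psat1* and *Psph* and overlapped them for *Phgdh*, with replicate 1 as the higher cKO library in each case. The fold between replicates was 1.59 in cKO and 1.26 in WT for *Phgdh*, 1.69 and 1.10 for *Psat1*, and 2.36 and 1.49 for *Psph*.

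*Shmt1* (chr11:60788897-60811265, minus strand), the cytosolic counterpart of *Shmt2*, was the only member below WT in both E9.5 cKO libraries. It had 26.9 and 19.8 FPKM in the E9.5 WT libraries, against 15.5 and 14.9 FPKM in the cKO libraries, a log2 difference of -0.57 (SE 0.38, limma adjusted p = 0.533) that was -0.36 without WT replicate 1. At E8.5 it had 35.9 and 34.6 FPKM in WT against 41.8 and 18.1 FPKM in cKO, where the genotypes overlapped.

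**Figure D2:**
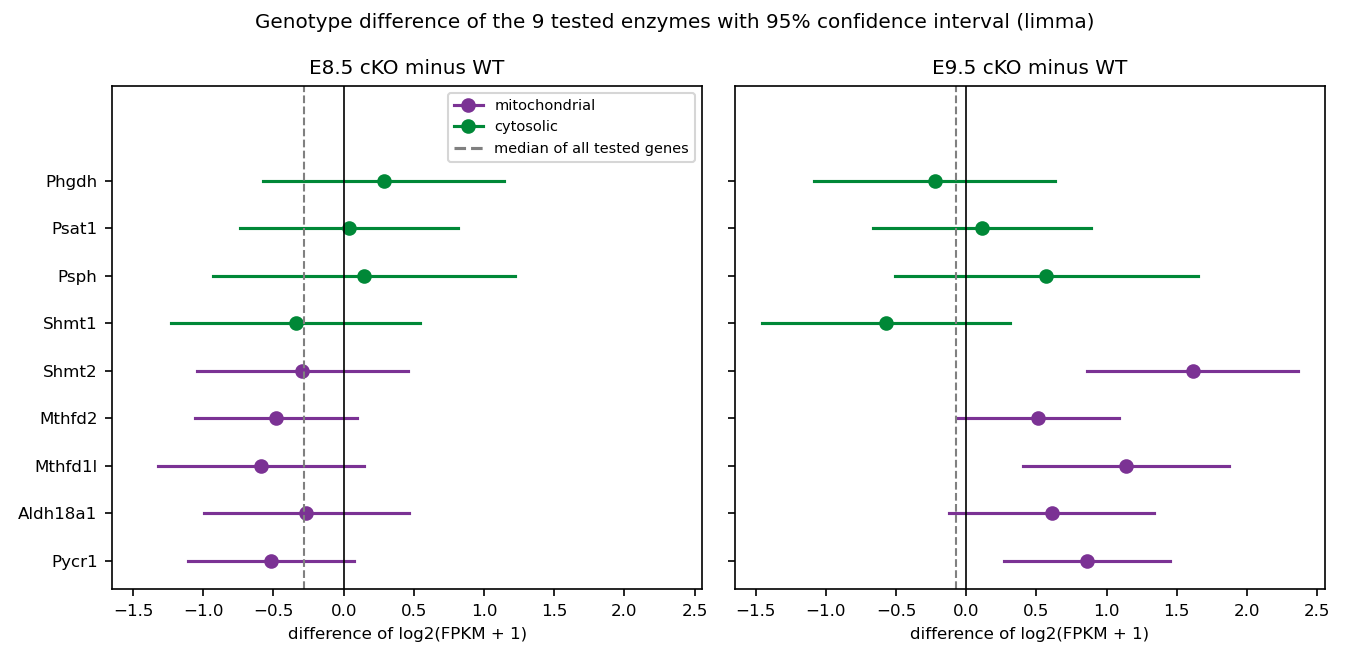
Difference in log2(FPKM + 1) between cKO and WT at E8.5 and E9.5 for the 9 tested enzymes, with 95% confidence intervals from limma. At E9.5 the 5 mitochondrial enzymes lie between 0.51 and 1.61 and the 4 cytosolic enzymes between -0.57 and 0.57, while the median of all genes, shown as a dashed line, is -0.07.

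Over the members as a group, the median log2 difference at E9.5 was 0.57, beside -0.07 over all tested genes. It was 0.86 for the 5 tested mitochondrial members and -0.06 for the 4 cytosolic members. The division by compartment was not tested, and the members were not drawn independently of one another. Across genes the E9.5 difference between genotypes was larger at higher GC content of the transcript (Spearman rho 0.405 over 9122 genes), and the E9.5 WT replicates also differed by GC content (rho -0.627, replicate 2 minus replicate 1). The longest transcript of *Shmt2* has a GC content of 57.4%, that of *Phgdh* 57.2%, and that of *Shmt1* 49.2%. With the trend on GC removed, the log2 difference was 1.36 for *Shmt2*, 1.08 for *Mthfd1l*, 0.70 for *Pycr1*, 0.58 for *Mthfd2* and 0.45 for *Aldh18a1*, and these 5 genes still stood higher in both cKO libraries. *Phgdh* moved to -0.48 and then stood lower without overlap, as *Shmt1* did. The limma adjusted p of *Shmt2* was then 0.0708. Leaving out either E8.5 cKO library, which enters only through the shared spread, put *Shmt2* past the threshold at adjusted p values of 0.0402 and 0.0385.

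Markers of several cell types separated the genotypes at E9.5 alongside these enzymes. Their counts without overlap stand beside 21.0% of all tested genes higher and 31.1% lower, shares that do not cover markers too low to be tested. The sum of 10 cardiomyocyte markers was 58683 and 56854 FPKM in WT against 80139 and 80274 FPKM in cKO, with 6 markers higher and 1 lower without overlap. This sum was mostly *Myl7* and *Actc1*, both among the higher markers. The lower marker was *Myh6*, at 916 and 777 FPKM in WT against 424 and 567 FPKM in cKO. The sum of 10 endothelial markers was 134 and 117 FPKM in WT against 217 and 184 FPKM in cKO, with 5 higher and 1 lower. The sum of 8 epicardial markers was lower, at 46.7 and 31.4 FPKM in WT against 13.96 and 15.7 FPKM in cKO, with all 8 lower without overlap. Primitive erythroid markers summed to 16368 and 34101 FPKM in WT against 44980 and 33247 FPKM in cKO, where the genotypes overlapped. Of these 10 markers, 5 (*Alas2*, *Klf1*, *Gata1*, *Epor* and *Hba-x*) were higher and 0 lower without overlap, and the median log2 difference of the list was 0.90, beside 0.52 for the cardiomyocyte and 0.25 for the endothelial list. Macrophage markers went both ways, with 3 of 8 higher and 2 lower without overlap. Their sum, at 9.02 and 9.84 FPKM in WT against 11.9 and 15.3 FPKM in cKO, was mostly *Lyz2*, at 8.03 and 9.28 FPKM in WT against 10.7 and 14.3 FPKM in cKO, while *C1qa* was listed at 0 in both cKO libraries. The 8 neural markers, 1 of which was at 0 in every library, summed to 12.0 and 8.998 FPKM in WT against 3.505 and 3.77 FPKM in cKO, with 2 lower and 0 higher without overlap. The sums of yolk sac endoderm, foregut endoderm, decidual and uterine natural killer markers overlapped. Single markers are named here after their values were seen. In whole hearts, fewer cells of a type and less RNA per cell cannot be told apart, and the part of these shifts in the enzyme values was not tested.

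Comparison of a mitochondrial enzyme with its cytosolic paralogue within a library does not depend on the scaling of that library. The ratios are given without a test. The ratio of *Shmt2* to *Shmt1* was 1.71 and 2.10 in the E9.5 WT libraries, against 9.82 and 8.12 in the cKO libraries. In E8.5 libraries it lay between 2.19 and 2.79 with overlapping genotypes, so the E9.5 cKO libraries stood apart from all others. The fold between E9.5 genotypes was 4.71, a log2 difference of 2.24 that became 1.83 with the GC trend removed. The ratio of *Mthfd2* to *Mthfd1*, the cytosolic trifunctional enzyme, was 1.01 and 1.22 in the E9.5 WT libraries, against 2.40 and 2.43 in the cKO libraries, a 2.17-fold difference. *Mthfd1* itself was lower in both E9.5 cKO libraries, at 14.9 and 16.7 FPKM beside 23.1 and 24.4 FPKM in WT. *Aldh1l1*, the cytosolic paralogue of *Aldh1l2*, was listed at 0 in 1 library and at most at 0.225 FPKM, so no ratio was formed.

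**Figure D3:**
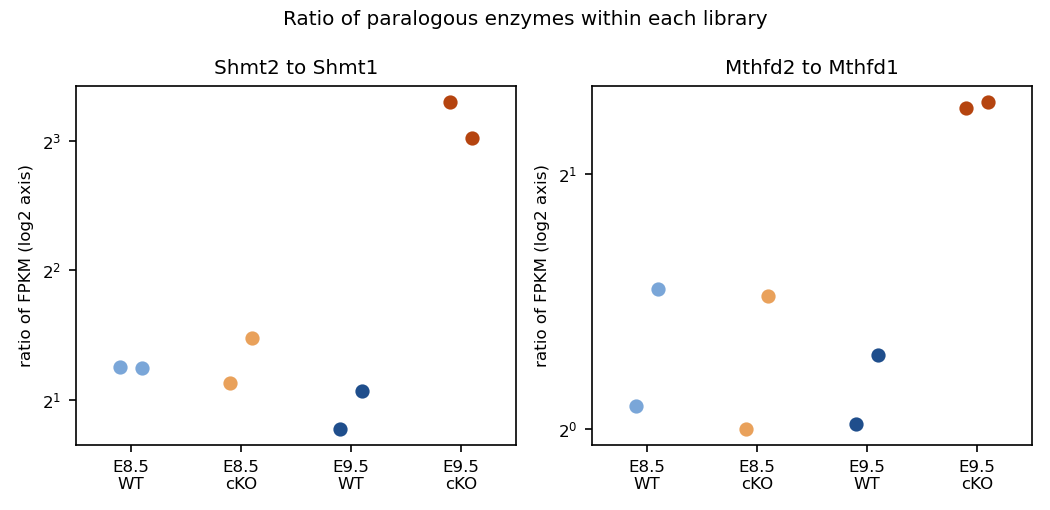
Ratio of FPKM between paralogous enzymes in each library, on log2 axes, for *Shmt2* to *Shmt1* and *Mthfd2* to *Mthfd1*. The E9.5 cKO libraries lie above all 6 other libraries in each panel.

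Promoters of the members were examined because several of the genes stood higher together in E9.5 cKO hearts. RefSeq windows on GRCm38.p6, from 250 bases before to 50 after the start of the gene, were at hand for 9 of the 10 members, as 10 windows, since *Psat1* has 2. The windows shown are those of *Pycr1*, *Aldh18a1* and *Shmt2*. That of *Pycr1* holds the only match to the C/EBP-ATF response element (CARE) among the 10 windows, and that of *Aldh18a1* the only E-box. The window of *Shmt2*, the tested member with the largest log2 difference, holds neither. Sequence outside the windows was not searched. Capitals mark the CARE (TGATGNAA) in *Pycr1* and the E-box (CACGTG) in *Aldh18a1*, searched on both strands. The windows are chr11:120643699-120643998, chr19:40588414-40588713 and chr10:127522395-127522694, all on the minus strand and written 5′ to 3′.
Pycr1: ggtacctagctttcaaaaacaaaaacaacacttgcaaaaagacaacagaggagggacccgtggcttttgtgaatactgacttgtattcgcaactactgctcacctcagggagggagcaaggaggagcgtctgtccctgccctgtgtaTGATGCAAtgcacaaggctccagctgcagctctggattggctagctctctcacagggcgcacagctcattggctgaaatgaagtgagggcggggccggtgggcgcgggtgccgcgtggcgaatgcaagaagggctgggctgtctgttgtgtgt
Aldh18a1: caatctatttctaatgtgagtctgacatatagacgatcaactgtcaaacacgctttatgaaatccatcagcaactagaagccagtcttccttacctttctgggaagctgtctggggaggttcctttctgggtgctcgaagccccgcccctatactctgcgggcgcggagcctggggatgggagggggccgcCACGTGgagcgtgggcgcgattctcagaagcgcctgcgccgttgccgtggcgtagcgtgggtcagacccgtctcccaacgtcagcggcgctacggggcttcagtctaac
Shmt2: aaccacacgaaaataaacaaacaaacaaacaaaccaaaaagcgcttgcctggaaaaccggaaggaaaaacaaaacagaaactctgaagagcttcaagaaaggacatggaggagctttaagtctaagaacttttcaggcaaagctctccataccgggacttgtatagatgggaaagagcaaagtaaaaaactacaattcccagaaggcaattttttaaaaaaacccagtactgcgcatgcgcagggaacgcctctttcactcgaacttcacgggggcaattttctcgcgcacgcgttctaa

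The CARE in *Pycr1* begins at position -103 from the start of the gene and was found in 3.97% of 32851 promoter windows of all genes. The E-box in *Aldh18a1* begins at -59 and was found in 7.15% of them. The shorter hypoxia core ACGTG, which lies within every E-box of this form, was found in 4 of the 9 members (*Aldh18a1*, *Mthfd1l*, *Psat1* and *Psph*), beside 19.6% of all windows, and in *Psat1* it lies in 1 of its 2 windows. These 3 patterns were picked from 9 after their matches had been seen. The other patterns included the CRE (TGACGTCA), found in 0 members, and the CCAAT box, found in 6 of 9 members beside 37.4% of all windows, in *Psat1* only in the other window. A count per member and a share per window are not on the same footing where a member has 2 windows. The matches describe the windows and were not linked to binding.

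At E8.5 no member separated the genotypes by the test. The rule called 0.00998% of all genes higher and 0.00% lower at this stage, and 0 of the 9 members passed an unadjusted p of 0.05 with 1.5-fold, beside 0.240% of all genes higher and 6.90% lower. The median log2 difference of the members was -0.29 beside -0.28 for the median gene. *Mthfd2*, *Mthfd1l* and *Pycr1* were lower in both cKO libraries than in both WT libraries, beside 40.1% of all genes lower and 2.54% higher in this way. Their log2 differences were -0.48, -0.59 and -0.52, and relative to the median gene -0.20, -0.31 and -0.24. Scaling the libraries to a common median ratio left 0 of the members lower without overlap. Single E8.5 libraries stood apart by markers of maternal tissue or yolk sac. The sum of 8 uterine natural killer markers was 480 FPKM in WT replicate 1 and between 0.942 and 1.61 FPKM in the other E8.5 libraries, and the sum of 7 decidual markers was 6607 FPKM in cKO replicate 2 and between 765 and 2136 FPKM in the others. The sum of 9 yolk sac endoderm markers was 6959.5 FPKM in cKO replicate 1, the higher cKO library for *Phgdh*, *Psat1* and *Psph*, and between 771 and 2659.5 FPKM in the others, and the part of these markers in the enzyme values was not tested. Without WT replicate 1 the log2 differences of *Mthfd2*, *Mthfd1l* and *Pycr1* were -0.50, -0.48 and -0.36, and without cKO replicate 2 they were -0.57, -0.19 and -0.28. Without cKO replicate 1 they were -0.39, -0.99 and -0.76, and the median of the members relative to all genes moved from -0.01 to -0.35, against 0.40 without cKO replicate 2. In each case 0 members were called.

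Between E8.5 and E9.5, 3 mitochondrial enzymes were called lower in WT hearts on the FPKM scale. *Mthfd1l* fell by 1.34 on the log2 scale (SE 0.32, limma adjusted p = 0.0171), *Shmt2* fell by 0.92 (SE 0.33, adjusted p = 0.0479) and *Mthfd2* fell by 0.75 (SE 0.25, adjusted p = 0.0401). These calls belong to the FPKM scale, because the median gene was itself lower by 0.84 at E9.5 in WT and the log2 differences relative to it were -0.51, -0.08 and 0.08. With median-ratio scaling all 3 calls were lost, and *Shmt2* and *Mthfd2* turned to 0.07 and 0.22, while *Mthfd1l* stayed at -0.41. The same scaling called *Phgdh* higher, with a log2 difference of 1.79 (limma adjusted p = 0.0369) beside 0.80 on the FPKM scale. The latter was 0.35 without E9.5 WT replicate 1 and 1.25 without replicate 2. Over all genes 46.7% were called lower and 1.40% higher in WT, so 3 of 9 members lower was near the background. Counting libraries without overlap gave 8 of 9 members lower, beside 80.1% of all genes, and only *Phgdh* higher, beside 5.43%. Leaving out any 1 of the 4 WT libraries also left 0 members called, leaving out either E9.5 cKO library left 1, and leaving out either E8.5 cKO library gave 6.

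In cKO hearts no member passed the test between stages, whereas 28.5% of all genes were called lower and 2.05% higher. The median gene had a log2 difference of -0.64, and the median member 0.29. *Shmt2* had a log2 difference of 0.99 (SE 0.33, limma adjusted p = 0.0518) and *Pycr1* of 0.77 (SE 0.26, adjusted p = 0.0534), and both were called higher with median-ratio scaling, at adjusted p values of 0.0201 and 0.0245. Both passed an unadjusted p of 0.05 with 1.5-fold, beside 3.25% of all genes higher and 42.9% lower. Leaving out E8.5 cKO replicate 1 called *Shmt2*, *Pycr1* and *Aldh18a1* higher, and leaving out replicate 2 called *Shmt1* lower. Without overlap, 3 of the 9 tested members stood higher at E9.5 (*Shmt2*, *Mthfd2* and *Pycr1*), beside 7.05% of all genes, and 1 stood lower, *Shmt1*, beside 62.7%. *Psph*, the phosphatase of serine synthesis, had the largest negative log2 difference after *Shmt1*, at -0.73 (SE 0.47). These values turned on the E8.5 cKO libraries. Without replicate 1 and without replicate 2 of that group, in that order, the log2 difference was -0.12 and -1.35 for *Psph* and -0.24 and -1.40 for *Shmt1*, and that of *Shmt2* was 0.57 without replicate 2.

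Markers of cell types moved with stage as well. In WT the cardiomyocyte sum was higher at E9.5 than at E8.5, where it had been 25792 and 42635 FPKM. Of its 10 markers, 7 were higher and 1 lower without overlap, beside 5.43% and 80.1% of all tested genes. The endothelial sum was lower, with 7 of 10 markers lower and 0 higher, beside 80.1% of all genes lower. All 8 macrophage markers were lower without overlap, beside the same 80.1%, a share that does not cover markers too low to be tested. The decidual sum was lower, and the epicardial, neural and yolk sac endoderm sums were higher. In cKO the cardiomyocyte sum was higher, with 6 markers higher and 0 lower beside 7.05% and 62.7% of all genes, the decidual sum was lower and the other sums overlapped. The part of these shifts in the stage differences of the enzymes was not tested.

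The difference between genotypes was then compared between stages in the same model. No member passed, and over all genes the rule called 0.0299% higher and 0.00998% lower. The log2 difference of E9.5 minus that of E8.5 was 1.91 for *Shmt2* (SE 0.46, limma adjusted p = 0.407), 1.73 for *Mthfd1l* (SE 0.45, adjusted p = 0.495), 1.38 for *Pycr1* (SE 0.36, adjusted p = 0.495) and 0.99 for *Mthfd2* (SE 0.35, adjusted p = 0.689). All 4 of these mitochondrial members passed an unadjusted p of 0.05 with 1.5-fold, beside 5.69% of all genes higher and 1.49% lower, and the median gene stood at 0.18. *Mthfd2*, *Mthfd1l* and *Pycr1* stood above WT at E9.5 and below it at E8.5 with no overlap at either stage, a pattern shown by 5.36% of all genes. With median-ratio scaling the lower side of this pattern at E8.5 was lost for each of these genes.

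Among themselves the mitochondrial members followed each other across the 8 libraries more closely than the cytosolic members did. After subtraction of the median gene of each library, Pearson's r between pairs of mitochondrial members lay between 0.72 and 0.95 (10 pairs), with *Aldh18a1* and *Pycr1* at the top. Pairs of cytosolic members lay between 0.20 and 0.86 (6 pairs), with *Phgdh* and *Psat1* at the top, and mixed pairs between -0.21 and 0.82 (20 pairs). The points share libraries, group structure and depth, and no test was made. The genes most like the mean of the members were *Decr2*, *Psme1*, *Saraf*, *Gltscr2* and *Cope*, with r between 0.991 and 0.996 over 8 libraries, chosen from 7228 genes. *Psme1*, for example, had 106 and 77.5 FPKM in the E9.5 WT libraries, against 137 and 155 FPKM in the cKO libraries.

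Mean levels can be set in order within a group, since FPKM is scaled by length. In E9.5 WT hearts they ran from *Phgdh* at 278 FPKM (SD 120, n = 2) through *Psat1* at 91.1 FPKM (SD 14.1), *Psph* at 44.1 FPKM (SD 17.3) and *Shmt2* at 43.8 FPKM (SD 3.23) down to *Pycr1* at 1.70 FPKM (SD 0.22) and *Aldh1l2* at 0.197 FPKM (SD 0.11). *Psph* and *Shmt2* were not separated there, nor were *Mthfd2* and *Shmt1*. In E9.5 cKO hearts *Shmt2* stood second, with 137 FPKM (SD 21.8, n = 2), above *Psat1* with 99.5 FPKM (SD 25.9), and every library of *Shmt2* was above every library of *Psat1*. *Mthfd1l*, with 21.5 FPKM (SD 3.75), had passed *Shmt1*, with 15.2 FPKM (SD 0.39).

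Genes around these enzymes were taken from lists compiled from general knowledge, and in each list genes with the largest E9.5 difference are named. No gene of any of the 5 lists passed the limma test at E9.5, and of their 78 genes tested 7 higher and 11 lower passed an unadjusted p of 0.05 with 1.5-fold, beside 5.08% and 9.99% of all genes. Among transcription factors and stress kinases known to act on these enzymes, which include *Myc*, *Trp53* and *Hif1a* besides genes of the amino acid response, 13 of 16 were tested, with a median log2 difference of 0.12 beside -0.07 for all genes. *Atf4*, the factor noted above, had 53.7 and 49.5 FPKM in the E9.5 WT libraries, against 107 and 103 FPKM in the cKO libraries, a log2 difference of 1.01 (SE 0.26, limma adjusted p = 0.142). *Ddit3*, which encodes the stress factor CHOP, had 4.47 and 4.41 FPKM in WT against 19.9 and 15.7 FPKM in cKO, a log2 difference of 1.78 (SE 0.27, adjusted p = 0.0648). *Atf3* had 3.31 and 3.76 FPKM in WT against 14.3 and 9.15 FPKM in cKO. All 3 genes stood higher in cKO without overlap, while *Hif1a* overlapped, with its WT replicates at 5.43 and 36.9 FPKM. Over the tested genes of the list, 5 were higher without overlap, beside 21.0% of all genes, and 4 were lower, beside 31.1%. The 4 lower genes, named after their values were seen, were *Eif2ak4* and *Eif2ak1*, kinases of the integrated stress response, and the transcription factors *Myc* and *Nfe2l2*. *Eif2ak4*, which senses amino acid shortage, had 1.43 and 1.71 FPKM in WT against 0.807 and 0.906 FPKM in cKO.

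Single genes of amino acid metabolism and transport also stood higher. *Asns*, asparagine synthetase, had 25.0 and 27.6 FPKM in the E9.5 WT libraries, against 57.4 and 56.6 FPKM in the cKO libraries (log2 difference 1.09, SE 0.24, limma adjusted p = 0.112). It was the member of the proline, glutamate and asparagine list with the largest difference, and that list as a whole, with 12 of 15 genes tested, had a median of -0.13. *Prodh2* and *Glul* were also higher without overlap, and *Glud1* overlapped. In the list of serine and glycine transport and use, with 14 of 16 genes tested and a median of 0.04, *Slc3a2*, the heavy chain of several amino acid transporters, had 46.3 and 41.5 FPKM in WT against 105 and 100.01 FPKM in cKO. *Slc1a4*, a transporter of small neutral amino acids including serine, had 2.40 and 1.59 FPKM in WT against 5.73 and 4.11 FPKM in cKO, and *Slc7a5* was low and higher in cKO. *Sfxn1*, the mitochondrial serine transporter, went the other way, with 11.2 and 11.03 FPKM in WT against 4.72 and 5.85 FPKM in cKO (log2 difference -0.95, SE 0.24, adjusted p = 0.136).

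Nucleotide synthesis, of which only some steps take up one-carbon units, had most of its genes lower at E9.5 in cKO hearts. All 20 purine and pyrimidine synthesis genes were tested, with a median log2 difference of -0.77 at E9.5, and 17 of them were lower without overlap and 1 higher, beside 31.1% and 21.0% of all genes. The 9 of 20 that passed an unadjusted p of 0.05 with 1.5-fold were all lower, beside 9.99% of all genes. *Rrm2*, a subunit of ribonucleotide reductase, had 196 and 259 FPKM in the E9.5 WT libraries, against 30.5 and 63.2 FPKM in the cKO libraries (log2 difference -2.33, SE 0.62, limma adjusted p = 0.143). *Rrm1*, *Paics* and *Ctps* had log2 differences of -1.35, -1.32 and -1.14, and each was lower in both cKO libraries. In the folate cycle and glycine cleavage list, with 19 of 23 genes tested and a median of -0.24, *Amt*, a component of the glycine cleavage system, was higher (0.864 and 1.24 FPKM in WT, 3.30 and 2.78 FPKM in cKO). *Folr1*, a folate receptor, was higher without overlap, and *Dld*, a dehydrogenase subunit of the glycine cleavage system, overlapped.

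**Figure D4:**
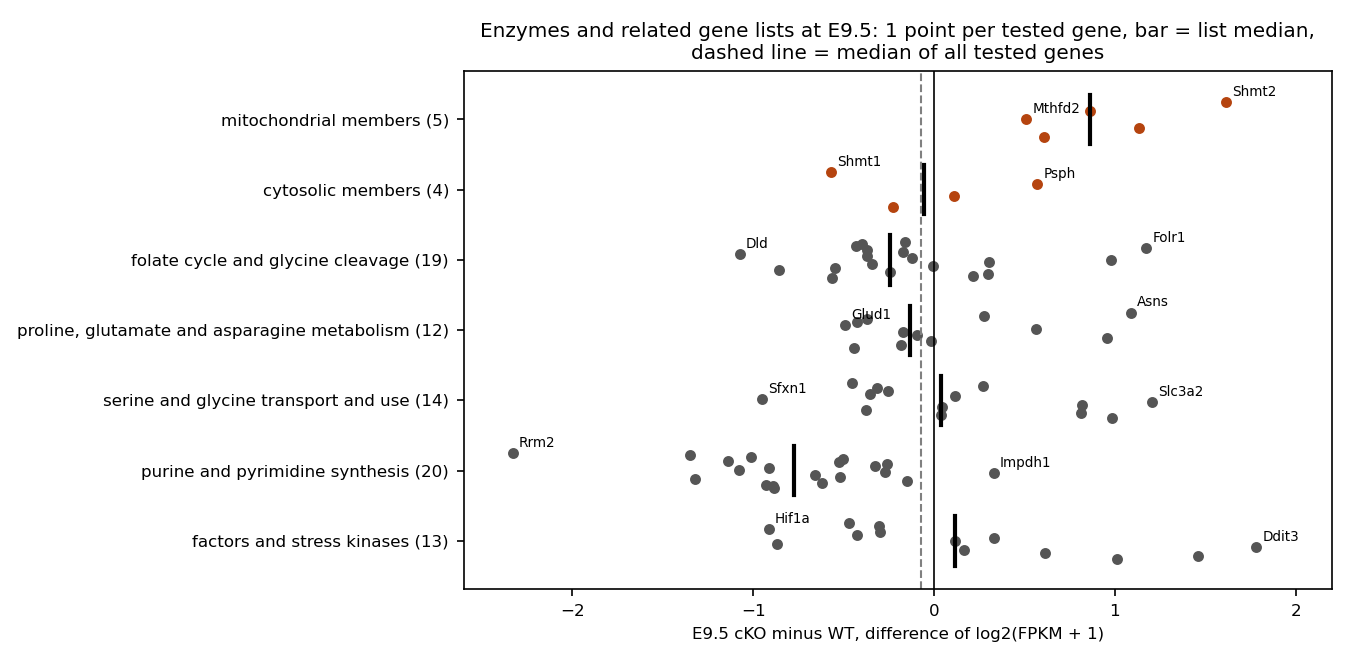
Difference in log2(FPKM + 1) between E9.5 cKO and WT for the tested members by compartment and for 5 lists of related genes, with 1 point per gene and a black bar at the median of each list. The mitochondrial members have a median of 0.86, the purine and pyrimidine genes one of -0.77, and the dashed line marks the median of all genes at -0.07.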

How the data were processed

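Total RNA of whole hearts was turned into amplified cDNA with Smart-seq2, per the study's methods, sequenced on an Illumina instrument and aligned with BWA. The deposited table gives FPKM per gene and library, which the authors calculated with a program not given in the sources used here. The submitters' notes name the mm9 build, but gene positions match GRCm38, and 91.7% of 9515 tested genes found in RefSeq start within 1000 bp of its start. Columns are headed mu and nc with stage and replicate, which the labels do not spell out, and were read as cKO and WT. All 8 columns of per-sample values were used.

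Where a symbol had several entries, that with the largest mean was used. Features with a mean of at least 1 FPKM were tested on log2(FPKM + 1) with limma 3.58.1 (run in R 4.3.3). All 4 groups shared 1 model with a mean-variance trend, and two-sided p-values were corrected over all 10018 features after Benjamini and Hochberg. The study's general statement on statistics names an unpaired t-test. Alternatives were another pseudocount of 0.1, no filter, median-ratio scaling, quantile normalization, removal of a GC trend, no variance trend, a replicate block, the compared libraries alone and leaving out each library. The procedure was tested on simulated data. Members and gene lists were chosen with earlier results of these data known, and the genes named from each related list are up to 4 with the largest E9.5 difference between genotypes, of which some are not reported here. Depth is unknown, so no counting interval is given. The longest transcript of a symbol gave GC content. Motifs were searched in RefSeq promoter windows with Python 3.11.15.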

Additional observations from a re-analysis of the deposited data

Results flagged for a closer look

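For 3 mitochondrial enzymes the cKO libraries stood on opposite sides of the WT libraries at the 2 stages, below at E8.5 and above at E9.5, with no overlap. The log2 difference between genotypes at E9.5 minus that at E8.5 was 0.99 for *Mthfd2*, 1.73 for *Mthfd1l* and 1.38 for *Pycr1*. The difference between stages was tested in the limma model and passed for none of them (adjusted p = 0.689, 0.495 and 0.495), while each had an unadjusted p under 0.05. Of all tested genes, 5.36% showed this pattern. With median-ratio scaling or quantile normalization, added after the data had been seen, none of the 3 genes was below WT without overlap at E8.5.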

How the results depend on the processing

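The count of members called between genotypes at E9.5 stayed at 0 except that leaving out single libraries gave 0 to 1, the 1 being *Shmt2* without either E8.5 cKO library. The count between genotypes at E8.5 and that of the interaction stayed at 0 under every alternative run. In WT development 3 calls became 1 with median-ratio scaling (*Phgdh*, higher), 0 with quantile normalization, 2 with no filter on low values (*Shmt2* lost), 4 with only the 4 WT libraries fitted (*Psph* gained), 5 with the GC trend removed and 0 to 6 with single libraries left out. In cKO development 0 calls became 2 with median-ratio scaling, 2 with quantile normalization, 1 without the variance trend, 1 with the replicate block and 0 to 3 with single libraries left out. The cause was not tested. The members without overlap, counted with alternatives chosen after seeing the data, numbered 2 lower at E9.5 with the GC trend removed instead of 1 (*Phgdh* gained), and at E8.5 2 higher with median-ratio scaling and 1 after quantile normalization instead of 0, with 0 lower under both instead of 3. The 5 higher at E9.5 were kept under all 3, joined by *Psph* with median-ratio scaling and by *Psph* and *Psat1* after quantile normalization.

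Directions turned for these log2 differences. Under median-ratio scaling and under quantile normalization, in that order, the E8.5 genotype difference was 0.0083 and 0.0095 for *Shmt1*, 0.0608 and 0.0189 for *Shmt2*, and 0.0767 and 0.0779 for *Aldh18a1*. The WT stage difference was 0.7058 and 0.2355 for *Psat1*, 0.3772 and 0.294 for *Shmt1*, 0.2174 and 0.0862 for *Mthfd2*, 0.4628 and 0.4229 for *Aldh18a1*, and 0.0802 and 0.2371 for *Pycr1*, and 0.0652 for *Shmt2* with median-ratio scaling. The cKO stage difference was 0.5416 and 0.2709 for *Psat1*, 0.0177 for *Psph* with median-ratio scaling and -0.0791 for *Phgdh* with the GC trend removed. The E9.5 genotype difference of *Phgdh* was 0.1148 with quantile normalization, and the interaction of *Psat1* was -0.1643 with median-ratio scaling.

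With single libraries left out, the E9.5 genotype difference ran from -0.6784 to 0.2282 for *Phgdh*, from -0.155 to 0.3761 for *Psat1* and from 0.1686 to 0.9708 for *Psph*. That at E8.5 ran from -0.0485 to 0.6198 for *Phgdh*, from -0.3379 to 0.4116 for *Psat1*, from -0.4704 to 0.758 for *Psph*, from -0.9208 to 0.2406 for *Shmt1*, from -0.7161 to 0.1274 for *Shmt2* and from -0.6959 to 0.1622 for *Aldh18a1*. The cKO stage difference ran from -0.0465 to 0.6217 for *Phgdh*, from -0.585 to 0.1645 for *Psat1*, from -0.0219 to 0.7825 for *Mthfd1l* and from -0.0443 to 0.8138 for *Aldh18a1*. The interaction ran from -0.3011 to 0.4484 for *Psat1*, from -0.1883 to 1.0401 for *Psph* and from -0.8126 to 0.3487 for *Shmt1*. The median member relative to all genes ran from -0.3451 to 0.4003 at E8.5, from 0.6311 to 1.1817 between cKO stages and from 0.3087 to 0.8184 for the interaction.

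Same-numbered replicates showed little shared deviation (r from -0.12 to 0.19 between groups), and the block was not read as a pairing. With 2 libraries per group these correlations cannot exclude shared litters or batches. The block called *Shmt2* between cKO stages (limma adjusted p = 0.0443) and changed no other count of calls. A crossed block fitted to the 4 WT libraries alone, chosen after seeing the data, gave 4 calls instead of 3. The same 4 genes were called with these libraries alone and no block. Where a group was left with 1 library, that library was assumed to vary like the others. Depth could not be used to weigh values, and low genes such as *Aldh1l2* are limited by it.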
